A study of Mus musculus with 7 samples.

Results

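The genes described here are 10 heart genes measured in mouse liver, 4 of which mark the atria (Myl7, Myl4, Nppa and Sln), 3 the ventricles (Myl2, Myl3 and Myh7) and 3 both chambers (Myh6, Tnni3 and Tnnt2). They were taken by gene symbol from the deposited tables, where each had 1 of 37468 rows, and all 10 were found. They had been picked because heart genes were seen in the liver libraries of wild-type mice, so their levels in wild-type and SunTag liver are given as a description, without a test. The question was whether that signal looked ventricular or atrial.

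RNA had been sequenced from liver of C57BL/6 mice in 7 libraries. The group WT held 2 libraries of wild-type mice, and SunTag held 2 of mice carrying the SunTag-dCas9 system, in which a Cas9 protein that does not cut DNA recruits effector proteins through a repeated peptide tag. The group Myod1_active held 1 library of SunTag-dCas9 mice in which Myod1 had been activated, and Myod1_control held 2 libraries of its controls in the same mice, so the dCas9 system was shared by all libraries except WT. The sources used here do not give how Myod1 was activated, what the controls received, the promoter of the dCas9 system, the age of the mice or any pooling of animals. Nothing in the labels says that libraries of a group came from separate animals, so the spread between them may be technical. Expression was given as FPKM, fragment counts normalised to transcript length and to the fragments of each library, which allows levels of different genes to be set side by side.

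Heart muscle contracts through the sarcomere, in which myosin heavy chains (Myh6, Myh7) pull on actin, myosin light chains (Myl2, Myl3, Myl4, Myl7) support and tune the myosin head, and troponins (Tnni3, Tnnt2) couple contraction to calcium. Each chamber uses its own light chains: ventricles carry the regulatory light chain Myl2 and the essential light chain Myl3, and atria carry Myl7 and Myl4 in their place. Atria of the adult also make the hormone precursor Nppa and the calcium pump regulator Sln, while Myh6 is the main heavy chain of both chambers in the adult mouse and Myh7 is that of the fetal ventricle. Sleeves of heart muscle run onto the large veins near the heart, and Myl2, Myl3 and Myh7 are also made by slow skeletal muscle. Hepatocytes are not known for any of these sarcomere proteins.

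All 7 libraries had the profile of liver. Alb, the plasma albumin, lay between 28500 and 54093 FPKM, and Hnf4a, a hepatocyte transcription factor, between 120 and 181. Total read counts were unknown, and 12971 to 13804 genes per library reached an FPKM of 1. Myod1, the targeted gene, was at 3.52 FPKM in Myod1_active and was listed at 0 in the other 6 libraries. The experiments differed in more than treatment. Xist, made by the inactive X chromosome, was at 56.9 to 82.2 FPKM in WT and SunTag. It was at most 0.324 in the other 3 libraries, whose Y-linked Eif2s3y was at 30.3 to 37.3. Eif2s3y was at 0.531 and 0.137 in WT and 0 in SunTag. The Y-linked Uty was at 0.0941 and 0.101 in WT and, higher, at 0.231 and 0.133 in SunTag. The globin Hba-a1 was at 746 to 1927 FPKM in WT and SunTag and at 0.692 to 1.25 in the other 3, while Alas2, the haem synthesis enzyme of red cell precursors, went the other way, at 7.42 to 21.7 against 34.0 to 44.1. Comparisons across the experiments therefore cannot be told apart from sex or from the level of these red cell genes. In tissue, fewer cells of a type and less RNA per cell cannot be told apart either.

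The ventricular genes were present in both WT libraries and at or near 0 in the other 5. Myl2, the ventricular regulatory light chain (ENSMUSG00000013936, chromosome 5, 122550960 to 122563481 on mm9), was the most abundant of the 10, at 14.96 FPKM in WT replicate 1 and 14.6 in WT replicate 2. It was listed at 0 in both SunTag libraries, in Myod1_active and in both Myod1_control libraries, with deposited upper bounds of 0.658 to 0.764 there. The WT libraries thus lay far apart from the rest and close to each other (14.8 ± 0.238, SD, n = 2). Both WT values of Myl2 lay above their own deposited upper bounds, 11.1 and 13.1, so those bounds do not serve as their error. The span of Myl2 overlaps that of Ccdc63, which was at 0.239 to 1.13 FPKM in all 7 libraries.

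Myl3, the ventricular essential light chain (ENSMUSG00000059741, chromosome 9, 110666150 to 110672308), was at 5.20 and 6.76 FPKM in WT and was listed at 0 in the other 5 libraries. Myh7, the slow heavy chain (ENSMUSG00000053093, chromosome 14, 55589525 to 55613471), was at 0.691 and 1.06 FPKM in WT, at 0.0166 and 0 in SunTag, at 0 in Myod1_active and at 0 and 0.00456 in Myod1_control. No ventricular gene overlapped between WT and any other group. Of all genes above 0 in any library, 3.83% lay higher in both WT libraries than in the other 5. The genes had been picked for their signal in WT, so this lack of overlap describes the choice.

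The genes of both chambers showed the same division, with a remainder in SunTag for the troponins. Myh6, the fast cardiac heavy chain (ENSMUSG00000040752, chromosome 14, 55560758 to 55585764), was at 3.81 and 4.31 FPKM in WT and listed at 0 in the other 5 libraries. Myh6 exceeded Myh7 by 5.52-fold in WT replicate 1 and 4.06-fold in WT replicate 2. Both are near-identical neighbours on chromosome 14, so how reads were divided between them is uncertain. Their spans hold the microRNA genes Mir208a and Mir208b, whose rows were listed at 0 in all 7 libraries.

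Tnnt2, cardiac troponin T (ENSMUSG00000026414, chromosome 1, 137737452 to 137748837), was at 7.60 and 8.79 FPKM in WT. It was at 0.285 and 0.224 in SunTag and listed at 0 in the 3 libraries of the Myod1 experiment. The WT mean was 32.2 times the SunTag mean. Tnni3, cardiac troponin I (ENSMUSG00000035458, chromosome 7, 4469907 to 4475831), was at 8.83 and 7.28 FPKM in WT and at 1.60 and 0.652 in SunTag, so the WT mean was 7.17 times the SunTag mean. In the Myod1 experiment Tnni3 reached 0.234 FPKM in Myod1_control replicate 2 and was at 0 in the other two libraries. Tnni3 was the only one of the ventricular and shared genes above 0.3 FPKM outside WT. Its values in both WT libraries and in SunTag replicate 1 lay above their own deposited upper bounds, and its row overlaps that of 6030429G01Rik, at 0 to 0.220 FPKM.

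**Figure D1:**
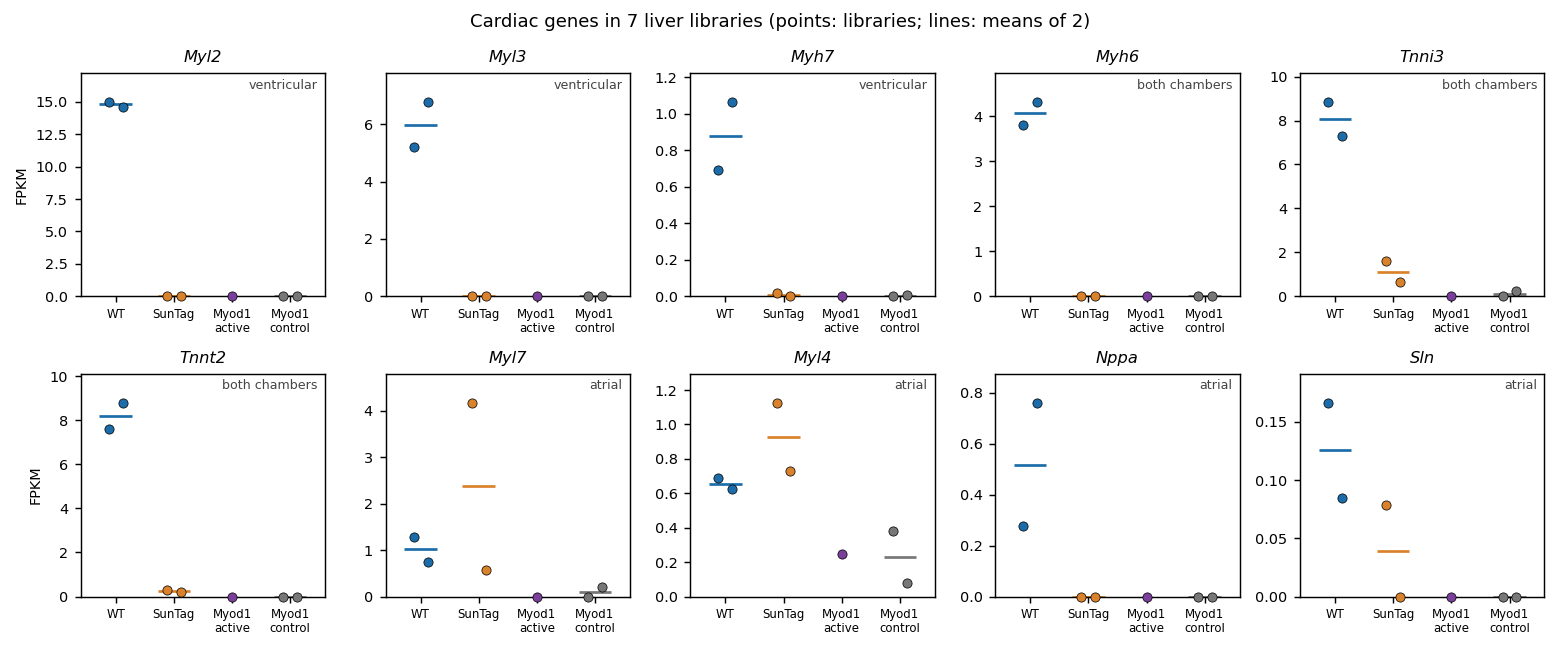
FPKM of each of the 10 genes (y axes, each on its own linear scale from 0) in the 4 groups; points are libraries and lines the means of groups with 2 libraries. Myl2, Myl3, Myh6, Nppa and Myh7 stand at or near 0 outside WT, while Myl7 and Myl4 reach their highest values in a SunTag library, at 4.17 and 1.13 FPKM.

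The atrial genes did not share one pattern. Myl7, the atrial regulatory light chain (ENSMUSG00000020469, chromosome 11, 5796640 to 5798785), was at 1.28 and 0.753 FPKM in WT and at 4.17 and 0.567 in SunTag. Of the Myod1 experiment, Myl7 had 0.209 FPKM in Myod1_control replicate 2 and 0 in the other two libraries. The WT values of Myl7 lay between those of the SunTag libraries, and its highest value was that of SunTag replicate 1, which also exceeds its deposited upper bound of 4.04. On the log2(FPKM + 1) scale WT minus SunTag was -0.51 (SE 0.584, n = 2 and 2), and 0.35 without SunTag replicate 1, so its direction rested on that library.

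Myl4, the atrial essential light chain (ENSMUSG00000061086, chromosome 11, 104411977 to 104457067), was at 0.688 and 0.623 FPKM in WT and at 1.13 and 0.729 in SunTag. It was the only gene of the 10 above 0 in every library, with 0.248 FPKM in Myod1_active and 0.381 and 0.0794 in Myod1_control. Both WT libraries lay below both SunTag libraries and above the 3 of the Myod1 experiment, and 13.1% of the genes above 0 in any library lay below both SunTag libraries in that way. The span of Myl4 holds the predicted gene Gm11663, which was at 4.34 to 7.53 FPKM in all 7 libraries. The sources used here do not say whether the counting used strand, so reads of overlapping rows may not have been separated.

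Nppa, the precursor of atrial natriuretic peptide (ENSMUSG00000041616, chromosome 4, 147374831 to 147376188), was at 0.276 and 0.762 FPKM in WT and listed at 0 in the other 5 libraries. It followed the ventricular genes in its presence, at a level that differed 2.76-fold between the WT libraries. The predicted gene Gm13054 overlaps Nppa and was at 0.211 and 0.516 FPKM in WT, at 0.0878 in Myod1_control replicate 1 and at 0 in the other 4 libraries. Sln, which slows the calcium pump of the sarcoplasmic reticulum (ENSMUSG00000042045, chromosome 9, 53698058 to 53701651), was the lowest of the 10, at 0.167 and 0.0848 FPKM in WT, 0.0783 and 0 in SunTag and 0 in the other 3. Its lowest WT and highest SunTag values were close to each other.

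The promoters of 3 of these genes are shown because their transcripts behaved differently. Myl3 and the atrial Nppa were above 0 in WT alone, and Myl7 also in SunTag and, at 0.209 FPKM, in Myod1_control replicate 2. Each is the 250 bases before the RefSeq start on GRCm38.p6, a build other than that of the FPKM tables, written 5′ to 3′ on the gene's strand, with matches to the CArG box (the site of serum response factor, matched on both strands) and to GATAA on either strand in capitals. Myl3 lies on the plus strand at chr9:110763428-110763677, Myl7 on the minus strand at chr11:5898783-5899032 and Nppa on the plus strand at chr4:148000472-148000721.
Myl3: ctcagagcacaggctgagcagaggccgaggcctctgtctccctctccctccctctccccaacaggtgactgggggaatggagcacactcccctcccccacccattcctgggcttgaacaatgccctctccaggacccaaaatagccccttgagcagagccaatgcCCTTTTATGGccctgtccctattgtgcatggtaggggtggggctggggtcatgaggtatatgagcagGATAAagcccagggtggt
Myl7: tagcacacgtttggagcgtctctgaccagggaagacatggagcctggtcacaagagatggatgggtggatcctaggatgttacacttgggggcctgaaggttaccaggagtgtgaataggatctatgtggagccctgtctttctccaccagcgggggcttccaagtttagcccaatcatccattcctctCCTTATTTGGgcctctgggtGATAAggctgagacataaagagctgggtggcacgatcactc
Nppa: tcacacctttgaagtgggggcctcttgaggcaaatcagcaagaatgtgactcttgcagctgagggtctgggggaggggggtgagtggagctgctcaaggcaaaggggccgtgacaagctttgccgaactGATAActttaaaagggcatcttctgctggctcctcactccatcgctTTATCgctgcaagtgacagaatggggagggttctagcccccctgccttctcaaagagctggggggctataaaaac

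The ventricular Myl3 and the atrial Myl7 both held a CArG box, CCTTTTATGG from -85 to -76 and CCTTATTTGG from -61 to -52, counted back from the start, followed by GATAA closer to the start. Nppa held GATAA on each strand and no CArG box in this window. Among 32851 windows of the same length in the table, 1.47% held a CArG box, 22.6% GATAA, 0.508% the MEF2 site and 66.2% the E-box CANNTG, the kind of site that Myod1 binds. Windows existed for 9 of the 10 genes, Sln being without one. Some genes have more than 1 tabled start, and without Myl2 there were 10 windows of 8 genes. Of the 10 windows, 2 held a CArG box, 4 GATAA, 0 a MEF2 site and 9 an E-box, all on either strand. Matches to GATAA and CANNTG can overlap other motifs, and a match is a run of letters, not a site shown to be bound. The tabled starts of Myl2 belong to a gene model that spans 20750 bases against 12522 in the FPKM tables, so its windows were left out of these counts. Tnnt2, whose tabled model spans 15954 bases against 11386, was kept. The bases after 1 of its starts were found in no GENCODE vM21 transcript of the gene, and the window of that start was 1 of the 4 with GATAA.

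Set side by side within a library, the ventricular light chains exceeded the atrial ones in WT. The summed FPKM of Myl2 and Myl3 was 10.3 times that of Myl7 and Myl4 in WT replicate 1 and 15.5 times in WT replicate 2, a mean log2 ratio of 3.66 ± 0.424 (SD, n = 2). By pair, Myl2 exceeded Myl7 by 11.7-fold and 19.4-fold, and Myl3 exceeded Myl4 by 7.56-fold and 10.9-fold. Such ratios do not depend on how libraries are scaled to each other. In SunTag the order was the opposite: Myl2 and Myl3 were listed at 0, while Myl7 and Myl4 summed to 5.30 and 1.30 FPKM, so no ratio is given.

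The 10 genes summed to 43.5 and 45.1 FPKM in WT, 7.28 and 2.17 in SunTag, 0.248 in Myod1_active and 0.381 and 0.527 in Myod1_control. In WT the 4 atrial genes made up 5.53% and 4.93% of that sum (5.23 ± 0.425%, SD, n = 2), the 3 ventricular genes 47.9% and 49.8%, and the 3 shared genes 46.5% and 45.2%. The shares of the WT libraries lay within a few percentage points of each other. The atrial genes made up 73.9% and 59.7% of the much smaller SunTag sums, nearly all of it from Myl7 and Myl4.

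**Figure D2:**
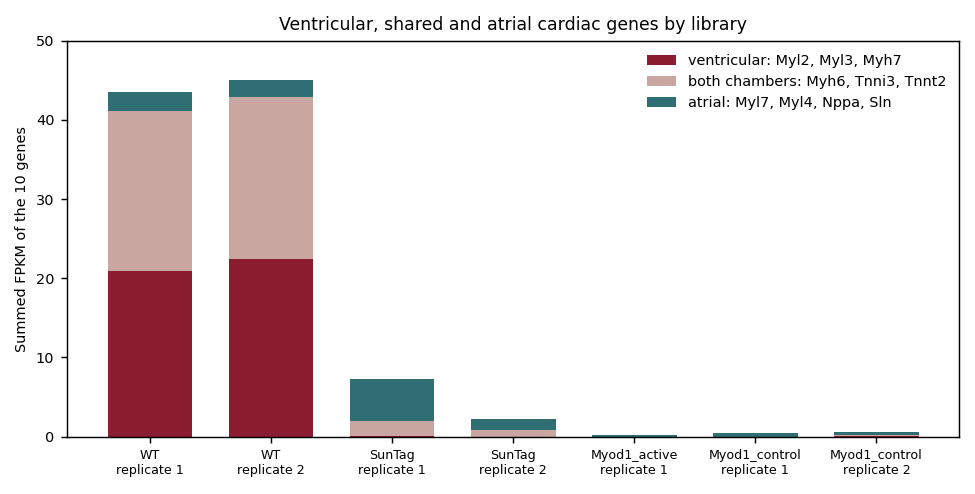
Summed FPKM (y axis, linear from 0) of the ventricular, shared and atrial genes, stacked for each of the 7 libraries on the x axis. The WT bars reach 43.5 and 45.1 FPKM, with an atrial part of 2.41 and 2.22, and the SunTag bars reach 7.28 and 2.17, with an atrial part of 5.38 and 1.30.

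In order of their WT means the genes ran from Myl2 at 14.8 FPKM through Tnnt2 (8.20), Tnni3 (8.05), Myl3 (5.98), Myh6 (4.06), Myl7 (1.01), Myh7 (0.877), Myl4 (0.656) and Nppa (0.519) to Sln at 0.126. The 2 WT libraries of neighbours in that order overlapped for Tnnt2 and Tnni3, for Myl7 and Myh7 and for Myl4 and Nppa, so those pairs are not ordered by these data. The ratio of WT replicate 2 to WT replicate 1 was 0.825 to 1.30 for the 5 most abundant genes and 0.509 to 2.76 for the 5 others.

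Both WT libraries lay above both SunTag libraries for 8 of the 10 genes, the exceptions being Myl7 and Myl4, and for the same 8 above all 5 other libraries. Of the 25634 genes above 0 in any library, 11.7% lay above both SunTag libraries and 3.83% above all 5 others. On the log2(FPKM + 1) scale WT minus SunTag was 3.98 for Myl2 (SE 0.128), 2.87 for Tnnt2 (SE 0.145), 2.79 for Myl3 (SE 0.170), 2.34 for Myh6 (SE 0.146), 2.12 for Tnni3 (SE 0.273), 0.89 for Myh7 (SE 0.175) and -0.21 for Myl4 (SE 0.204). These values depend on the pseudocount of 1 and are not folds for genes listed at 0. The 8 tested genes had a median of 2.23, where the median of all tested genes was -0.0143. Nppa and Sln did not reach the FPKM of 1 in any library that the test required. Of the 8, 5 reached it in WT alone (Myl2, Myl3, Myh6, Myh7 and Tnnt2). Since the genes were chosen from this contrast, the counts, differences and median above describe the choice and are no support for it.

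The comparison of Myod1_active with Myod1_control asked whether heart genes moved when Myod1, a factor that drives cells towards skeletal muscle, was activated. The genes had been picked for their signal in WT, with earlier results of these data, the Myod1_control values among them, already known. Of the 30 values of the 10 genes in them, 24 were listed at 0 and the highest was 0.381 FPKM, for Myl4 in Myod1_control replicate 1. Myl2, Myl3, Myh6, Tnnt2, Nppa and Sln were at 0 in all 3. With 0.381 as the highest value, the 8 tested genes had reached the FPKM of 1 through WT or SunTag alone. For Myl2, Myl3, Myh6 and Tnnt2 the difference was 0 in advance, so limma's test could not call them. Myh7, Tnni3, Myl7 and Myl4 were not called either, where 0.254% of all tested genes were. The largest difference was -0.15 for Tnni3 (SE 0.334, 1 library against 2). Myl7 differed by -0.14 (SE 0.716) and Myl4 by 0.03 (SE 0.250). With no value above 0.381 FPKM in these libraries, differences had little room beyond such standard errors. The test could therefore hardly have called Myh7, Tnni3, Myl7 or Myl4, and nothing is concluded from it. The median of the 8 differences was 0, set by the genes at 0 in all 3 libraries, where the median of all tested genes was 0.253. The standard errors of the 8 differences ran from 0.157 for Myl2 to 0.716 for Myl7. For the genes at 0 in all 3 libraries they came from the spread of other libraries and genes. Missing the threshold does not show that the groups did not differ.

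Against SunTag, the Myod1_control libraries were lower for 4 genes without overlap: Tnni3 at 0 and 0.234 against 1.60 and 0.652 FPKM, Tnnt2 at 0 in both against 0.285 and 0.224, Myl7 at 0 and 0.209 against 4.17 and 0.567, and Myl4 at 0.381 and 0.0794 against 1.13 and 0.729. Of all tested genes 41.6% lay lower without overlap in that comparison, which also separates the experiments and the sexes. Myl2, Myl3, Myh6 and Nppa were at 0 on both sides.

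Other genes of heart muscle were counted in lists drawn up from textbook knowledge with the heart signal of WT already known. The largest held 21 sarcomere genes that heart shares with other striated muscle. Both WT libraries lay above both SunTag libraries for 18 of the 21 and above all 5 other libraries for 16, beside 11.7% and 3.83% of all genes above 0. Of 7 tested, none passed limma's test between WT and SunTag, by which 0.0762% of all tested genes were called higher in WT and 0.0508% lower. Actc1, cardiac actin, was at 2.18 and 3.08 FPKM in WT against 0.0193 and 0.199 in SunTag. Tnnc1, the troponin C of heart and slow muscle, was at 2.73 and 5.86 against 1.59 and 2.29. Des, the intermediate filament of all muscle, was at 2.47 and 2.22 against 2.44 and 1.62, so its libraries overlapped. Csrp3 and Tpm1 were abundant in every library, at 13.1 to 26.6 and 16.4 to 32.6 FPKM.

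Genes of heart and oxidative muscle metabolism divided in a similar way, with both WT libraries above both SunTag libraries for 9 of 12 and above all 5 others for 8. The shares of all genes above 0 in any library were 11.7% and 3.83%. Mb, the oxygen store myoglobin, was at 7.85 and 8.72 FPKM in WT and listed at 0 in the other 5 libraries. It was the 1 member of the list that limma called higher in WT, where 0.0762% of all tested genes were. Since the list was drawn up with the WT signal known, that call describes the choice and is no support for it. Cox8b, a muscle subunit of cytochrome oxidase, was at 2.11 and 3.46 in WT against 0 and 0.342 in SunTag. Cox7a1, another such subunit, was at 11.8 and 14.2 against 19.6 and 11.3, and Pdk4, a kinase that limits glucose oxidation, at 2.99 and 4.08 against 3.36 and 5.12, so both overlapped. Art1 was at 5.80 in WT replicate 1 and 0.109 in WT replicate 2, so its level rested on 1 library.

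Among 12 calcium handling and channel genes the count was 7 of 12 above both SunTag libraries and above all 5 others, beside 11.7% and 3.83% of all genes above 0 in any library. Most of the 7 had low values. Slc8a1, the sodium-calcium exchanger, was at 4.03 in WT replicate 1 and 0.159 in WT replicate 2 against 0.248 and 0.339 in SunTag. Atp2a2, the calcium pump that liver also makes, was at 35.4 and 29.6 against 36.5 and 26.8, and Gja1 at 1.70 and 1.33 against 1.55 and 1.49 FPKM. None of the 3 tested genes of that list passed limma's test between WT and SunTag. Of all tested genes 0.0762% were called higher in WT and 0.0508% lower.

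Lists for single chambers bore on the question more directly, though most of their genes lay near 0. Of 10 further ventricle-enriched genes 6 lay higher in both WT libraries than in both SunTag libraries and 5 above all 5 others. Of all genes above 0 in any library 11.7% and 3.83% did. Only Pln, the inhibitor of the calcium pump, reached an FPKM of 1, at 1.88 and 1.93 in WT, 0.237 and 0.351 in SunTag and at most 0.134 in the other 3. The ventricular regulator Irx4 was at 0.0109 FPKM in WT replicate 1 and 0.0131 in Myod1_control replicate 2, and at 0 in the other 5 libraries. Of 11 further atrium-enriched genes with a row, 4 lay higher in both WT libraries than in both SunTag libraries and 2 above all 5 others, also more than those shares of all genes. The 2 above all 5 others were Bmp10, at 0.749 and 0.644 FPKM in WT against 0.375 and 0.544 in SunTag, and Kcna5, at 0.0280 and 0.0380 against 0 and 0.00984. Mybphl, a myosin binding protein of atria, was listed at 0 in all 7 libraries, and Sbk2, an atrial kinase, was at 0.0284 FPKM in WT replicate 2 and 0 in the other 6. Gja5, a gap junction protein, was 1 of those 4, at 0.846 and 0.783 FPKM in WT against 0.746 and 0.683 in SunTag, and was highest in Myod1_active, at 1.36. Pam, an enzyme that matures peptide hormones, was at 18.5 and 17.9 in WT against 23.3 and 16.6 in SunTag, and Fgf12 at 0.503 and 0.1301 against 1.19 and 0.0627, so the groups overlapped for both. None of the 4 tested genes of both lists passed limma's test between WT and SunTag. Of all tested genes 0.0762% were called higher in WT and 0.0508% lower, so so few genes could hardly have given a call.

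Markers of muscle sleeves on the large veins and of the sinus region gave no gene, of 8, that lay higher in both WT libraries than in both SunTag libraries. Of all genes above 0 in any library 11.7% did. Shox2, a transcription factor of the sinus region, was listed at 0 in all 7 libraries, and the pacemaker channel Hcn4 was at 0.00727 and 0 FPKM in WT against 0.00684 and 0.00767 in SunTag. Tbx3 and Smoc2, which reached an FPKM of 1, were at 12.8 and 8.78 against 4.46 and 20.9 and at 1.74 and 1.67 against 3.78 and 2.19. In the other 3 libraries Tbx3 was at 11.2 to 20.4 and Smoc2 at 0.227 to 1.97, so neither was particular to libraries with the heart signal. Of 8 cardiac transcription factors 2 lay higher in both WT libraries than in both SunTag libraries, beside the same share of all genes. Gata4, Gata6 and Hand2, which liver cells also make, were at 5.57 and 7.02, 2.50 and 2.74, and 3.996 and 4.24 FPKM in WT against 5.04 and 7.71, 2.28 and 2.53, and 4.59 and 4.27 in SunTag. Nkx2-5, a factor specific to heart muscle within these lists, was at 0.0790 and 0.0402 in WT, 0 in SunTag and at most 0.0616 in the other 3.

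**Figure D3:**
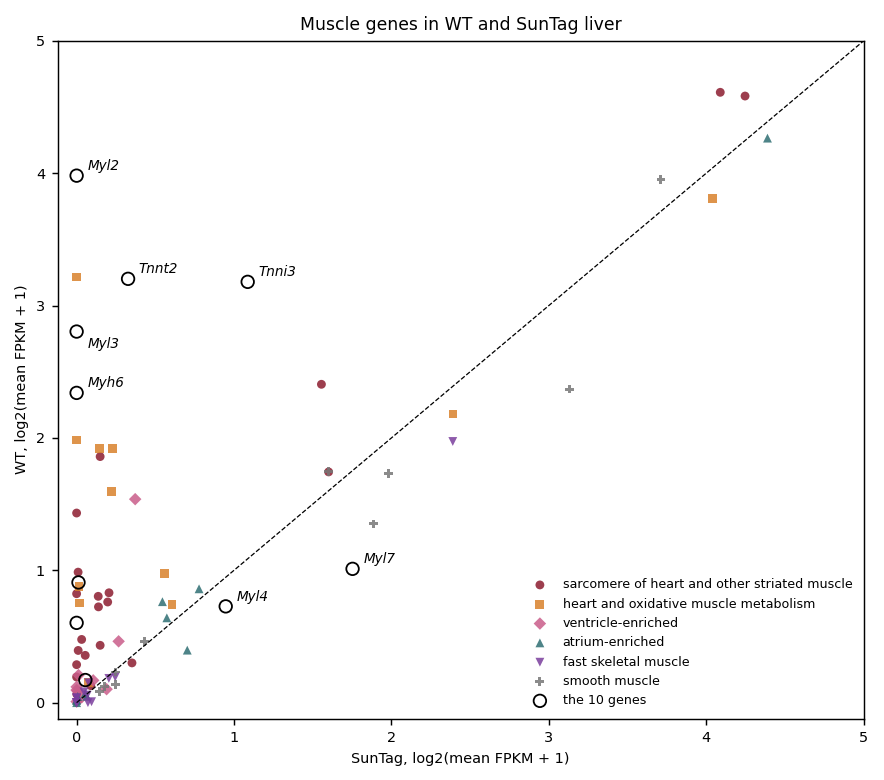
Mean FPKM in WT (y axis) against SunTag (x axis), both as log2(mean FPKM + 1), for genes of 6 muscle lists and the 10 heart genes (open circles), with the line of equal values dashed. Myl2, Myl3 and Myh6 lie on the y axis at a SunTag value of 0, together with Mb and Tcap, while Myl7 and Myl4 lie below the line.

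Skeletal muscle was examined because slow fibres also make Myl2, Myl3 and Myh7. Tnni1, the slow troponin I, was listed at 0 in all 7 libraries, and Tnnt1, the slow troponin T, was at 2.42 and 3.95 FPKM in WT against 3.603 and 3.999 in SunTag. In the slow list 1 of 6 genes lay higher in both WT libraries than in both SunTag libraries, and in the list of 15 fast genes 1 did. Of all genes above 0 in any library 11.7% did, so these counts lay near that share. The fast genes summed to 4.44 and 2.50 FPKM in WT, against 6.51 and 3.15 in SunTag, mostly from Mylpf, at 4.09 and 1.77 against 5.77 and 2.70. The fast genes Tnnc2, Pvalb and Ampd1 were at 0 in all 7 libraries. The embryonic and determination genes of skeletal muscle summed to 0.530 and 0.472 FPKM in WT, against 0.585 and 0.547 in SunTag.

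Other tissues were checked by the same counts. Of all genes above 0 in any library, 11.7% lay higher in both WT libraries than in both SunTag libraries and 13.1% lower. Of 10 smooth muscle genes 1 lay higher and 4 lower in both WT libraries than in both SunTag libraries, with Tagln at 4.77 and 3.555 against 10.4 and 5.14 FPKM. Red blood cell genes summed to 2337 and 2358 FPKM in WT, against 6390 and 3920 in SunTag, and to 39.7 to 45.9 in the other 3 libraries. Of 6 brown fat genes, among them the Cox8b that heart shares, 3 lay higher in both WT libraries than in both SunTag libraries. Ucp1, also in that list, was at 0 in all libraries except SunTag replicate 2, at 0.0191 FPKM. A part of brown fat in the WT signal was not tested. Markers of lung summed to 0.662 and 1.06 FPKM in WT, against 0.664 and 1.106 in SunTag, and the secreted lung proteins Sftpc and Scgb3a2 were at 0 in all 7 libraries. The kidney list summed to 0.140 and 0.00923 FPKM in WT. Of 6 lung, 5 kidney, 7 pancreas and 6 stomach and intestine genes, 0 lay higher in both WT libraries than in both SunTag libraries.

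Myl7, the gene that went against the WT pattern, was highest in the library where genes of the mesothelium, the cell layer that covers liver and heart, were also highest. Upk3b was at 6.74 FPKM in SunTag replicate 1, 1.65 in SunTag replicate 2 and 1.33 and 1.48 in WT, and at most 0.101 in the other 3 libraries. Msln was at 4.99, 1.30, 1.16 and 1.28 in the same order and at most 0.234 in the other 3. The whole list of 8 endocardial and epicardial markers summed to 25.0 FPKM in SunTag replicate 1, 13.7 in SunTag replicate 2, 12.6 in both WT libraries and 3.38 to 4.59 in the other 3. None of the 8 was higher in both WT libraries than in both SunTag libraries, and 3 were lower, beside 11.7% and 13.1% of all genes above 0 in any library. Within that list Wt1, Upk3b, Msln, Tcf21 and Aldh1a2 were highest in SunTag replicate 1, and Npr3, Nfatc1 and Tek were not. Npr3, Nfatc1 and Tek were at 0.395, 1.65 and 3.24 FPKM there, against 0.594, 2.29 and 3.49 in SunTag replicate 2. Genes of other lists were also highest in SunTag replicate 1, among them Tagln at 10.4 and Hba-a1 at 1927 FPKM. The part of any of these genes in the level of Myl7 was not tested.

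**Figure D4:**
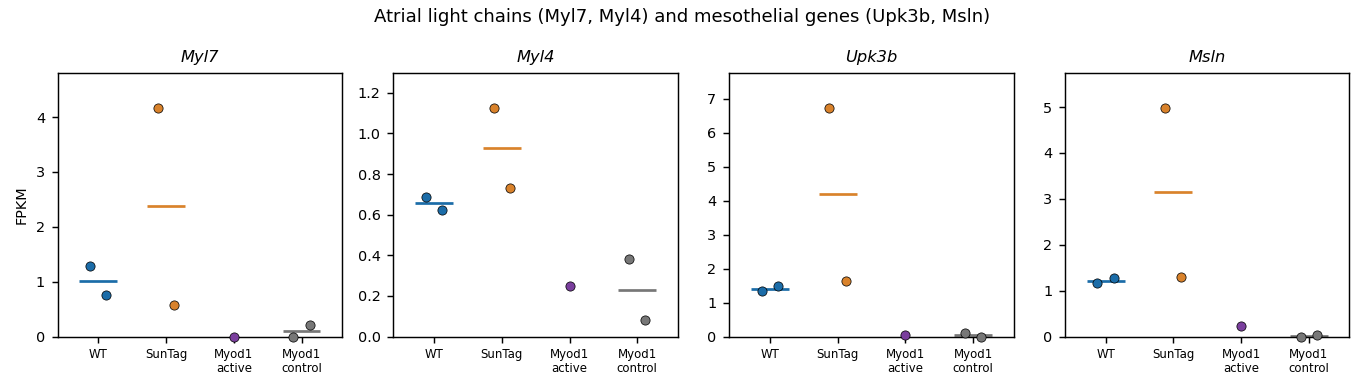
FPKM (y axes, each on its own linear scale from 0) of Myl7, Myl4, Upk3b and Msln in the 4 groups; points are libraries and lines the means of groups with 2 libraries. SunTag replicate 1 is the highest library in all 4 panels, at 4.17, 1.13, 6.74 and 4.99 FPKM.

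Across the 7 libraries, 8 of the 10 genes followed the mean log2(FPKM + 1) of the other 9, with Pearson's r from 0.880 for Sln to 0.989 for Tnnt2, whereas Myl7 (0.299) and Myl4 (0.397) did not. With 7 points of which the 2 WT libraries stand apart, such values describe that division and little else. Among 7568 other genes with a range of at least 1 on that scale, the 10 named genes most like the mean of the members were Pln (r = 0.986), Mb (0.979), Tcap (0.964), Cox6a2 (0.963), Fhl2 (0.958), Ckmt2 (0.956), Actc1 (0.948), Rabl2 (0.948), Tmsb15b2 (0.940) and Mybpc3 (0.939). Of these, 7 were already in the muscle lists, and 11 predicted genes and small RNAs among them were passed over. Tcap, which caps the giant protein titin, was at 1.26 and 2.14 FPKM in WT and 0 in the other 5 libraries. Mybpc3, cardiac myosin binding protein C, was at 0.759 and 1.20 in WT, 0.00622 and 0.00698 in SunTag and at most 0.1498 in the other 3.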

How the data were processed

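The authors deposited 1 table of FPKM values per library, each with its bounds and a status flag, per the file headers. Cufflinks 2.2.1, TopHat2 2.1.1 and cutadapt 1.11 are named with mm9, per the submitters' processing notes. Settings, annotation and strand use are not given in the sources used here. Libraries were grouped by their titles. The 343 rows without the status OK in every library were left out and rows of 1 symbol summed (244 symbols). All 70 values of the 10 genes had the status OK, and 6 lay outside their own bounds. Starts in the tables count from 0, since 21682 of 32818 spans then equal those of GENCODE vM21, and are given counted from 1. Genes at 0 in 1 library and at 10 FPKM or more in the other 6 numbered 40, of which 3, all predicted, spanned 300 bp or more.

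Log2(FPKM + 1) was tested for the 15744 genes that reached an FPKM of 1 in any library in limma 3.58.1 (R 4.3.3), all 7 libraries sharing 1 spread and each group having its own mean, with a variance trend, two-sided tests and Benjamini-Hochberg adjustment at 0.05. The code was tested on simulated data. Sums and ratios were computed with pandas 2.3.3. Alternatives covered pseudocount, filter, scaling, short genes, the libraries fitted and a replicate block. The members, lists and rules were chosen with earlier results of these data known. From each further list the genes named are those that reached an FPKM of 1, at most 5 by WT mean, and a few under 1, chosen after their values were seen. Genes alike were the 10 of highest r, with predicted genes only counted. The values of 1 gene of the list for large veins and sinus region are not reported here.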

Additional observations from a re-analysis of the deposited data

How the results depend on the processing

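Counting genes called between WT and SunTag, 20 in all, gave 5 without genes under 300 bp, 31 in a fit of the 4 libraries alone and 23 to 79 with 1 library left out. For Myod1_active against Myod1_control, 40 became 23 with a pseudocount of 0.1, 253 without a filter, 20 without genes under 300 bp, 0 in a fit of the 3 libraries alone (2425 had an unadjusted p under 0.05) and 49 to 119 with 1 library left out. For Myod1_control against SunTag, 3832 became 255 in a fit of the 4 libraries alone and 58 to 4070 with 1 library left out, and its split of 1149 higher and 2683 lower became 1820 and 1750 with median-ratio scaling. The cause was not tested. Replicate numbers were not treated as pairs, since deviations of same-numbered libraries correlated at 0.000757 to 0.0425, and with a replicate block the counts were 15, 23 and 2928.

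The median difference of the tested members between WT and SunTag, 2.23, became 3.85 with a pseudocount of 0.1 and 2.07 to 2.23 with 1 library left out; it had no value on all 8 genes with a filter on the mean or without WT replicate 2 or SunTag replicate 1. The log2 light chain ratio in WT, 3.66, became 2.52 as a difference of mean log2(FPKM + 1) and 3.23 with Myh7, Nppa and Sln added, and was 3.36 and 3.96 in single WT libraries. The atrial share of 5.23% became 3.84% without Nppa and Sln, and was 4.93% and 5.53% in single libraries. All 99 refits of single members between Myod1_active and Myod1_control gave the same outcome as the main fit. With no member value above 0.381 FPKM in any library of that comparison, it could hardly have been otherwise. Read depth was unknown, so how few reads lie behind values under 1 FPKM cannot be given.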

Other observations

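A count made after the data were seen asked which genes were at an FPKM of 0.5 or more in both WT libraries and listed at 0 in the other 5. There were 18, of which 12 were predicted genes or small RNAs and 6 carried other names: Myl2, Myl3, Myh6, Mb, Tcap and the immunoglobulin segment Ighv1-75, at 0.694 and 0.530 FPKM. The same count for SunTag gave 10 genes, of which 2 carried other names, the immunoglobulin segments Ighj1, at 144 and 161 FPKM over a span of 53 bases, and Igkv17-127, at 0.523 and 0.587.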
